A study of Mus musculus with 28 samples.

Results

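Cth, Asns, Phgdh, Psat1, Psph, Shmt1, Shmt2, Mthfd2, Slc7a5 and Slc3a2 encode enzymes and transporters that supply a T cell with amino acids and one-carbon units. They were followed through every condition of a study of mouse CD4+ and CD8+ T cells with and without antigen receptor stimulation. Members were taken by symbol: a probe set, which is a group of oligonucleotides read as 1 value, was used where the array annotation gave it 1 of these 10 symbols and no other. That rule found 22 of the 22690 probe sets, for 10 of the 12393 genes. Cth, Psph, Slc7a5 and Slc3a2 had 1 each, Asns, Psat1 and Mthfd2 had 2 each, and Phgdh, Shmt1 and Shmt2 had 4 each. A further 2 probe sets that Phgdh shares with another symbol were not used.

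Phgdh, Psat1 and Psph act in sequence to make serine from a glycolytic intermediate. Shmt1 in the cytosol and Shmt2 in mitochondria split serine into glycine and a folate-bound one-carbon unit, and Mthfd2 oxidises that unit in mitochondria for use in purine and thymidylate synthesis. Asns makes asparagine, Cth makes cysteine from cystathionine, and Slc7a5 with its heavy chain Slc3a2 forms the LAT1 transporter of large neutral amino acids. In T cells this machinery is known to be induced by activation, and several of its genes are textbook targets of ATF4, the transcription factor of the amino acid response.

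The T cells came from C57BL/6N mice and carried a transgenic T cell receptor, AND for CD4+ cells and OT1 for CD8+ cells, so each cell type is represented by cells of a single specificity and the cell type cannot be told apart from the receptor. For day 2, cells were cultured for 2 days with 5 ng/ml IL7, either in untreated wells (unstimulated) or in wells coated with anti-CD3 and anti-CD28 antibodies at 10 µg/ml (stimulated), and sorted again. For day 5, cells prepared by the same culture spent 3 further days in recipient mice, named dtg-O or dtg-M by the labels, that did or did not present the antigen. The day 5 groups were unstimulated, transient (stimulation for the 2 culture days) and continuous (stimulation for all 5 days), and IL7 was thus present in the culture of every group. The culture medium of every group also held 2 mM glutamine, 50 µM mercaptoethanol and 10% serum. Each group held 3 arrays, except day 5 CD4 unstimulated and day 5 CD4 transient with 2 each, for 28 arrays in all. Replicates are described as independent biological samples. Antibody stimulation in culture and antigen in a recipient are different stimuli, and the arrays of the 2 days are set side by side below without a test. In sorted bulk samples, fewer cells with a transcript and less of it per cell cannot be told apart.

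Values are deposited log2 signals, so a difference of 1 is a change of 2-fold. For genes with several probe sets, the leading probe set is the brightest of them by its mean on the 28 arrays, and each of the 12393 genes was counted by its leading probe set. A difference is called where the p-value of limma, adjusted by Benjamini-Hochberg over 20380 probe sets, was below 0.05. Errors of differences are standard errors of that fit.

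Several arrays stood apart. The third array labelled CD4 unstimulated on day 2 had a median signal of 4.83 and the third labelled CD8 unstimulated a median of 4.97, against 6.29 to 6.53 on the other day 2 arrays. The former read 9.88 for Cd8a and 5.40 for Cd4, and the latter read 5.78 for Cd8a, so both went against their labels. Day 2 counts and the differences of the members are therefore given with and without this pair. Differences of single genes outside the set are given with the pair only. The beta-actin control signal at the 3′ end exceeded that at the 5′ end by 2.28 to 4.30 on unstimulated and by 1.11 to 1.69 on stimulated day 2 arrays, and the part of this in the day 2 differences was not tested. On day 5 this excess was 2.42 to 2.73 in CD4 transient, 1.92 to 2.44 in CD8 unstimulated and 0.31 to 1.02 in the other groups. B cell genes also stood higher in day 5 CD4 transient cells, where the mean over 9 markers was 7.09 to 8.64 against 5.01 to 5.71 in CD4 unstimulated cells. In CD8+ cells it was 5.39 to 6.89 in unstimulated, 5.44 to 5.85 in transient and 5.26 to 6.25 in continuous cells. The mean over 9 myeloid markers was 5.84 to 9.14 in CD8 unstimulated and 7.09 to 8.76 in CD4 transient cells. In the other day 5 groups it lay between 6.01 and 8.04. The part of these signals in the differences was not tested.

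Stimulation for 2 days was accompanied by higher signal for the whole set of genes. In CD4+ cells 10 of 10 genes rose, beside 10.5% of all genes, and in CD8+ cells 9 of 10 rose, beside 7.29% of all genes. In neither did a member fall, beside 0.734% and 0.912% of all genes. Counted by probe set, 18 of 22 rose in CD4+ cells, beside 10.2% of all probe sets, and 16 of 22 in CD8+ cells, beside 7.21%. The median difference over the 10 genes was 4.71 in CD4+ and 3.90 in CD8+ cells, where the median of all genes was 0.14 in both. For each of the 10 genes, every stimulated array lay above every unstimulated array of its cell type, which was true of 29% of all genes in CD4+ and 26.8% in CD8+ cells.

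Cth, the enzyme that releases cysteine in the transsulfuration pathway, had the largest rise of all 12393 genes in both cell types. Its signal was 4.32, 5.20 and 3.00 on CD4 unstimulated arrays and 12.47, 11.61 and 12.71 on CD4 stimulated arrays. It was 3.57, 4.27 and 3.79 on CD8 unstimulated arrays and 12.27, 12.50 and 11.90 on CD8 stimulated arrays. The unstimulated values are low on all 6 arrays and the stimulated values high on all 6, with a wide empty range between them. The difference was 8.09 ± 0.54 in CD4+ cells (adjusted p = 1.22e-05) and 8.34 ± 0.54 in CD8+ cells (adjusted p = 1.26e-05), which correspond to 273-fold and 325-fold. The unstimulated values lay between the 4.1 and 24.8 percentile of their arrays. No detection call was used here, so these values were not shown to be above background, and the size of the fold and its place among all genes depend on that low reading.

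Asns, the asparagine synthetase, had the third largest rise in both cell types. Its signal was 5.65, 6.28 and 3.90 on CD4 unstimulated and 13.03, 12.50 and 13.09 on CD4 stimulated arrays. On CD8 arrays it was 5.56, 6.44 and 4.21 without and 12.70, 12.71 and 12.32 with stimulation. The groups lay far apart, and the third unstimulated array was the lowest of its group in each cell type. The differences were 7.60 ± 0.64 (adjusted p = 4.72e-05) in CD4+ and 7.17 ± 0.64 (adjusted p = 4.44e-05) in CD8+ cells. The other Asns probe set rose by 7.96 ± 0.65 and 8.19 ± 0.65.

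Because the genes moved together on day 2, their promoters were read from RefSeq for mouse build GRCm38.p6. The table held windows of 300 bases, from 250 before to 50 after the start site, for 8 of the 10 genes, all but Cth and Slc7a5. The motif TGATGNAA, the C/EBP-ATF response element bound by ATF4 with a C/EBP partner, was searched on both strands and occurred in 3.97% of the 32851 windows of the table. Among the members it occurred in Asns alone, with its first base 23 bases before the start. The bases before the Asns start, at chr6:7693210-7693459 on the minus strand, are shown 5′ to 3′ with the match in capitals.
Asns: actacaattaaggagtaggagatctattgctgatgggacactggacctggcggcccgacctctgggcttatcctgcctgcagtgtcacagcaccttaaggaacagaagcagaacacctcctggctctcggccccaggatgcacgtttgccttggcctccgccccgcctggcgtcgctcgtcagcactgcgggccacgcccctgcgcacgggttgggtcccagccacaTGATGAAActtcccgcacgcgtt

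Of the stress response genes described further on, only Chac1, Nupr1 and Trib3 were searched. The same motif occurred, on the opposite strand, in the window of each. The other genes of that list were not searched, so these matches give no share of it. In Trib3 its first base was 14 bases after the start, and that stretch is not shown. The matches of Chac1 and Nupr1 are shown for comparison as 30 bases with the match in capitals, Chac1 at chr2:119351038-119351067 on the plus strand and Nupr1 at chr7:126625562-126625591 on the minus strand.
Chac1: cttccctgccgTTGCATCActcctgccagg
Nupr1: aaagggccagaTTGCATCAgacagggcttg

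The E-box CACGTG, present in 7.15% of windows, was found in none of the 8 member genes. The motif CCAAT, the site of the factor NF-Y, was present in 37.4% of windows and in those of Phgdh, Psat1, Psph, Shmt1 and Mthfd2. Mthfd2 had 3 matches, 2 on the gene's strand and 1 as ATTGG on the other, and its bases before the start, at chr6:83317605-83317854 on the minus strand, show their spacing. A match is a description of letters, and the windows without a match say nothing about a factor.
Mthfd2: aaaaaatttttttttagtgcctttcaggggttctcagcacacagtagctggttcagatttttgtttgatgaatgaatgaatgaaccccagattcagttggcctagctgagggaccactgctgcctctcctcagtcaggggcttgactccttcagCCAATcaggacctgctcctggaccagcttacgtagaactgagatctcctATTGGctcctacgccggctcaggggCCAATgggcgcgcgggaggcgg

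Among the serine synthesis genes, Psat1, the aminotransferase, read 6.55, 8.80 and 7.07 on CD4 unstimulated and 12.19, 12.32 and 12.34 on CD4 stimulated arrays. In CD8+ cells it read 8.74, 8.54 and 6.30 without and 11.99, 12.00 and 11.81 with stimulation. Spread was wide among unstimulated and narrow among stimulated arrays. The differences were 4.81 ± 0.66 (adjusted p = 0.000884) and 4.07 ± 0.66 (adjusted p = 0.00274). Phgdh, the first enzyme of the path, read 11.11, 10.99 and 9.55 in CD4+ and 11.00, 11.04 and 8.67 in CD8+ cells without stimulation. It reached 12.39 to 12.79 in CD4+ and 12.21 to 12.50 in CD8+ stimulated cells. By leading probe set its rise was the smallest of the 10 genes, 2.09 ± 0.61 (adjusted p = 0.0452) in CD4+ and 2.15 ± 0.61 (adjusted p = 0.0497) in CD8+ cells, and 1 of its 4 probe sets was not called in either. Both calls of the leading probe set were near the threshold. The CD4 call was lost without any single CD4 array (adjusted p 0.0505 to 0.147), and the CD8 call without the third unstimulated or any stimulated array (adjusted p 0.102 to 0.154). Without the third unstimulated arrays the rises were 1.59 ± 0.18 (adjusted p = 0.000162) and 1.36 ± 0.18 (adjusted p = 0.000741). Every Phgdh probe set was called up in both cell types in that fit.

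Psph, the phosphatase that completes serine synthesis, was the gene not called in CD8+ cells. Its CD8 unstimulated arrays read 8.99, 8.81 and 5.72 and its stimulated arrays 10.44, 10.96 and 10.22, a difference of 2.70 ± 0.81 (adjusted p = 0.0596, 95% interval 0.95 to 4.46). In CD4+ cells the values went from 6.18, 8.81 and 6.76 to 11.30, 11.03 and 11.21, a rise of 3.93 ± 0.81 (adjusted p = 0.00872). The groups did not overlap in either cell type. Without the first or the second CD8 unstimulated array Psph was called (adjusted p = 0.0345 and 0.034).

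Of the one-carbon genes, Shmt1, the cytosolic enzyme, went from 5.50, 6.10 and 4.60 to 11.06, 10.36 and 11.15 in CD4+ cells, a rise of 5.46 ± 0.52 (adjusted p = 7.59e-05). In CD8+ cells it went from 6.17, 6.64 and 4.95 to 9.98, 10.33 and 9.66, a rise of 4.07 ± 0.52 (adjusted p = 0.000555). The probe sets of Shmt1 differed: in CD4+ cells a further one rose, by 3.41 ± 0.51, while another differed by 0.86 ± 0.89, and in CD8+ cells only the leading probe set was called. Without the third unstimulated arrays a further Shmt1 probe set was called in CD8+ cells, at 0.867 ± 0.245 (adjusted p = 0.0248). Shmt2, the mitochondrial enzyme, went from 6.28, 8.67 and 8.18 to 12.54, 12.34 and 12.44 in CD4+ cells, a rise of 4.73 ± 0.92 (adjusted p = 0.0061). In CD8+ cells it went from 10.02, 10.10 and 5.98 to 12.43, 12.32 and 11.85, a rise of 3.50 ± 0.92 (adjusted p = 0.0356). Without the third unstimulated arrays its CD8 rise was 2.14 ± 0.55 (adjusted p = 0.0164), and the CD8 call was lost without any single stimulated array (adjusted p 0.0927 to 0.12).

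Mthfd2, the mitochondrial dehydrogenase and cyclohydrolase, read 9.95, 10.41 and 8.24 on CD4 unstimulated and 13.05, 12.93 and 13.03 on CD4 stimulated arrays. In CD8+ cells it read 9.60, 9.70 and 7.27 without and 12.89, 12.78 and 12.54 with stimulation. The 6 stimulated arrays lay within a narrow range. The rises were 3.47 ± 0.66 (adjusted p = 0.0055) and 3.88 ± 0.66 (adjusted p = 0.00357), and by the other probe set they were 5.40 ± 1.00 and 5.73 ± 1.00.

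Both chains of the LAT1 transporter rose. Slc7a5, the transporting chain, went from 7.79, 9.19 and 7.81 to 12.54, 12.39 and 12.29 in CD4+ cells, a rise of 4.15 ± 0.61 (adjusted p = 0.00135). In CD8+ cells it went from 9.45, 9.43 and 6.99 to 12.62, 12.43 and 12.55, a rise of 3.91 ± 0.61 (adjusted p = 0.0022). Slc3a2, the heavy chain that carries it to the membrane, rose by 4.69 ± 0.65 (adjusted p = 0.000884) in CD4+ cells, from 6.27, 8.78 and 7.22 to 12.33, 11.98 and 12.03. Its CD8 rise was 3.42 ± 0.65 (adjusted p = 0.00671), from 9.57, 9.07 and 7.33 to 12.25, 12.04 and 11.93.

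**Figure D1:**
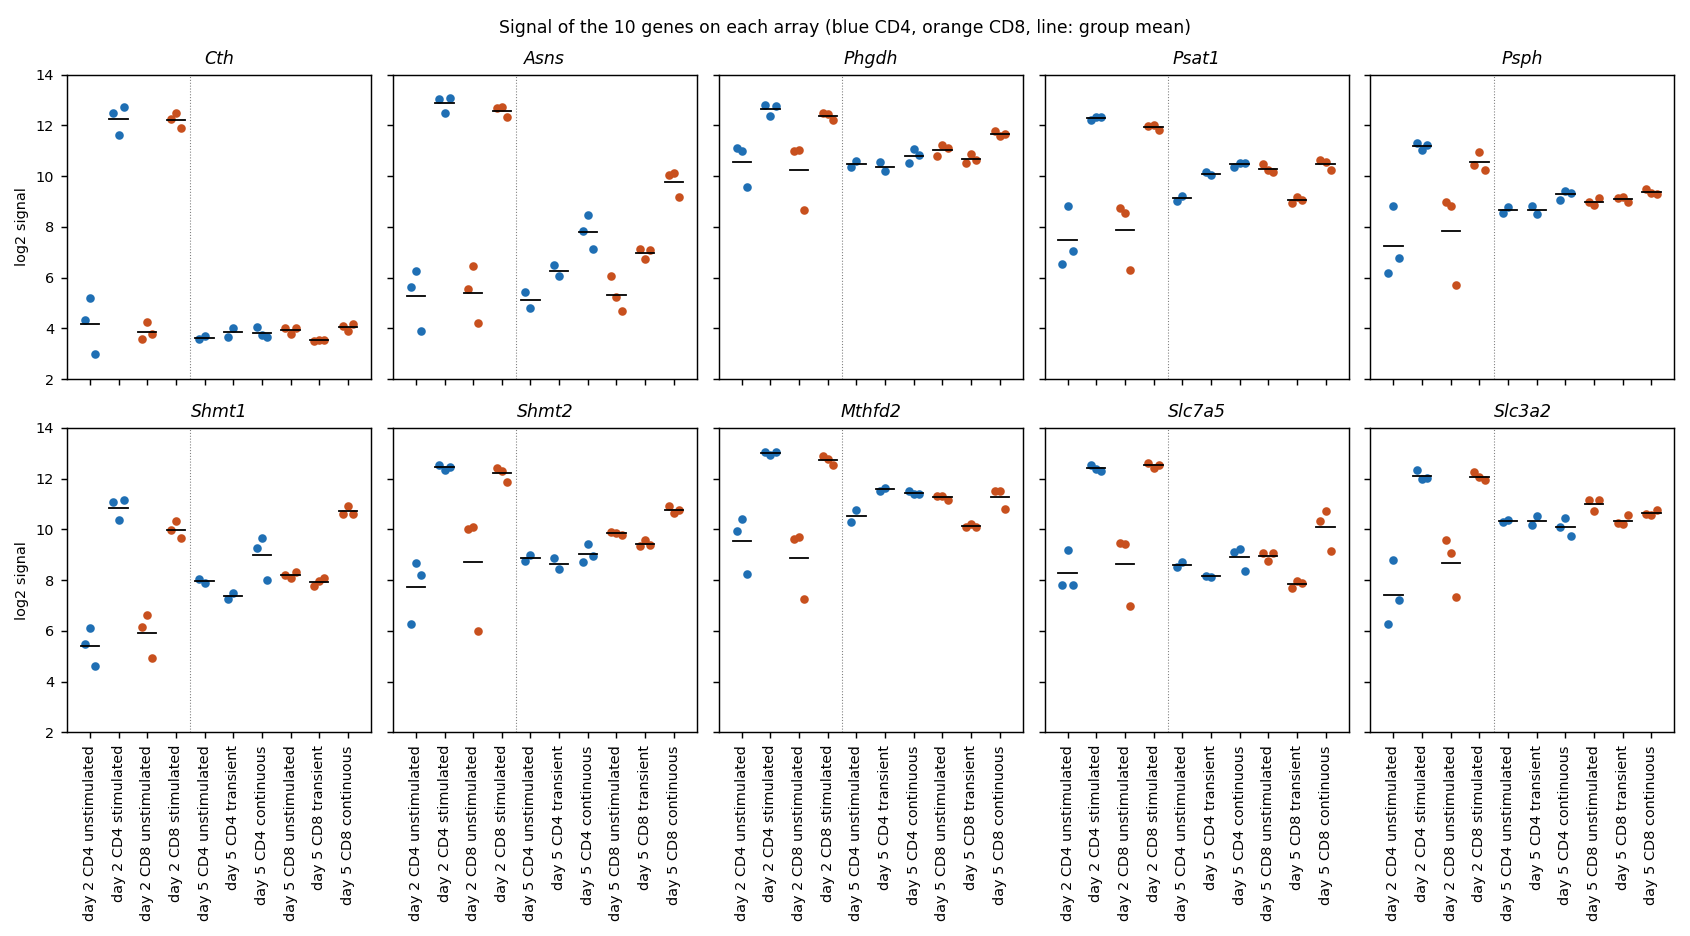
Log2 signal (y axis) of the leading probe set of each gene on every array, by day, cell type and treatment (x axis). Points are arrays and the line is the group mean. Cth was between 11.61 and 12.71 on stimulated day 2 arrays and between 3.51 and 4.16 on every day 5 array, while Asns and Shmt1 stood high again in day 5 continuous cells.

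Without the third unstimulated arrays, 10 of 10 genes rose in CD4+ cells, beside 26.1% of all genes, and 9 of 10 in CD8+ cells, beside 16.2%. Psph was again the exception in CD8+ cells, with a difference of 1.64 ± 0.61 (adjusted p = 0.0624). Cth differed by 7.50 ± 0.39 in CD4+ and 8.30 ± 0.39 in CD8+ cells in that fit, and Asns by 6.91 ± 0.32 and 6.58 ± 0.32. In the same order Psat1 differed by 4.61 ± 0.51 and 3.29 ± 0.51, and Shmt1 by 5.056 ± 0.315 and 3.588 ± 0.315. Mthfd2 differed by 2.83 ± 0.18 and 3.09 ± 0.18. Slc7a5 differed by 3.921 ± 0.335 and 3.096 ± 0.335, and Slc3a2 by 4.590 ± 0.575 and 2.754 ± 0.575. In CD4+ cells Shmt2 differed by 4.97 ± 0.55 and Psph by 3.685 ± 0.605. Markers of other cells moved in the same fit: in stimulated CD4+ cells 9 of 9 B cell markers (median −1.16), 9 of 9 myeloid markers (median −0.78) and 2 of 2 red cell markers (median −1.31) were called lower. In CD8+ cells 0 of 9 B cell, 4 of 9 myeloid and 2 of 2 red cell markers were called lower. Of all 12393 genes, 4854 were called lower in CD4+ and 2553 in CD8+ cells in that fit, so calls in this direction were common. The part of the markers' cells was not separated from that. The part of the marker signals in the differences of the members was not tested. The split of all called genes moved with scaling: 93.5% of genes called in CD4+ and 88.9% in CD8+ cells were higher with stimulation, against 51.2% and 52.6% after centring each array on its median. After that centring 10 of 10 member genes were called up in both cell types.

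Whether the rise differed between CD8+ and CD4+ cells was tested as an interaction. Of 12393 genes 0 were called by limma (0%), with 75 at an unadjusted p below 0.05, and every member had an adjusted p of 1. The difference of the rises, CD8 minus CD4, was 0.25 ± 0.76 for Cth (95% interval −1.38 to 1.89) and −1.38 ± 0.74 for Shmt1 (−2.97 to 0.21). These intervals are wide. Without the third unstimulated arrays 260 genes were called by leading probe set (2.1%), none of them a member. By leading probe set Shmt2 came nearest at −2.83 ± 0.77 (adjusted p = 0.0894). Another Shmt1 probe set was called smaller in CD8+ cells in that fit, at −2.19 ± 0.35 (adjusted p = 0.0246).

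On day 5 the number of genes called, and their directions, varied with the comparison. Continuous stimulation was set against transient stimulation first, because CD8+ cells of these groups had beta-actin 3′ excesses of 0.31 to 0.56 and 0.66 to 1.02, the closest pair among the CD8+ comparisons. In CD8+ cells 8 of 10 genes were higher with continuous stimulation, beside 13.5% of all genes, and 0 were lower, beside 13.5%. By probe set 20 of 22 were called up, beside 14% of all probe sets. All 22 probe sets had every continuous array above every transient array, which held for 19.3% of all probe sets. The median difference over the 10 genes was 1.24, against −0.05 for all genes.

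Shmt1 and Asns had the largest differences between continuous and transient CD8+ cells. Shmt1 read 10.60, 10.93 and 10.61 on continuous and 7.76, 7.96 and 8.08 on transient arrays, a difference of 2.78 ± 0.30 (adjusted p = 3.17e-05), or 6.87-fold. Asns read 10.03, 10.11 and 9.16 on continuous and 7.11, 6.75 and 7.10 on transient arrays, a difference of 2.78 ± 0.38 (adjusted p = 0.00016), or 6.86-fold. The third continuous array was the lowest of its group for Asns, and it was still well above the highest transient array.

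Slc7a5 read 10.34, 10.72 and 9.16 on continuous and 7.67, 7.96 and 7.89 on transient CD8 arrays. The difference was 2.23 ± 0.32 (adjusted p = 0.000198), with the third continuous array again lowest. Psat1 differed by 1.42 ± 0.13, Shmt2 by 1.33 ± 0.17, Mthfd2 by 1.15 ± 0.18, Phgdh by 0.99 ± 0.17 and Cth by 0.52 ± 0.13, with adjusted p between 1.01e-05 and 0.00995. Cth counts among the 8 genes, but its values lay between the 6.5 and 17.0 percentile of these arrays and were not shown to be above background. Psph differed by 0.29 ± 0.13 (adjusted p = 0.127) and Slc3a2 by 0.30 ± 0.18 (adjusted p = 0.249), and neither was called.

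In CD4+ cells the same comparison called 3 of 10 genes up, beside 17.6% of all genes, and 0 down, beside 16.4%. By probe set 10 of 22 were called up and 0 down, so the count by leading probe set is the lower reading. Shmt1 read 9.28, 9.66 and 8.02 on continuous and 7.27 and 7.49 on transient arrays, a difference of 1.61 ± 0.33 (adjusted p = 0.00181). Asns read 7.82, 8.48 and 7.11 against 6.49 and 6.07, a difference of 1.53 ± 0.42 (adjusted p = 0.0127), and Psph differed by 0.62 ± 0.15 (adjusted p = 0.00469). The other Asns probe set differed by 0.57 ± 0.56 and was not called (adjusted p = 0.484). For these 3 genes the groups did not overlap by leading probe set, as for 25.3% of all genes with continuous arrays above, and the third continuous array was lowest for Shmt1 and Asns. Without the second CD4 transient array the count fell to 1, since Asns and Psph were no longer called (adjusted p = 0.0981 and 0.0779). The CD4 transient arrays also carried the higher B cell signal, the pan-T markers called lower in 4 of 6 and the higher actin excess given above, and the part of these in the differences was not tested.

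Set against cells that had never been stimulated, continuous CD8+ cells had 6 of 10 genes higher, beside 21.4% of all genes, and 0 lower, beside 25.6%. By probe set 16 of 22 were called up and 0 down. The beta-actin 3′ excess was 1.92 to 2.44 in CD8 unstimulated and 0.31 to 0.56 in CD8 continuous cells. Its part in these CD8 differences was not tested. Asns stood out with 6.06, 5.24 and 4.68 on unstimulated arrays and a difference of 4.44 ± 0.38 (adjusted p = 8.53e-07), or 21.7-fold, the 11th largest of all genes. Shmt1 differed by 2.51 ± 0.30, Slc7a5 by 1.11 ± 0.32, Shmt2 by 0.92 ± 0.17, Phgdh by 0.63 ± 0.17 and Psph by 0.40 ± 0.13. The Psph call was lost after quantile normalisation (adjusted p = 0.192) and median centring (adjusted p = 0.0543) and without the first or the second unstimulated or the first continuous array (adjusted p 0.0501 to 0.0882). The Slc7a5 call was lost without the second continuous array (adjusted p = 0.0562). In CD4+ cells 5 of 10 genes were higher, beside 9.82% of all genes, and 0 were lower, beside 10.7%. By probe set 9 of 22 were called up and 0 down. Asns read 5.42 and 4.81 on CD4 unstimulated arrays and differed by 2.69 ± 0.42 (adjusted p = 0.000586). Psat1 read 9.03 and 9.21 without and 10.37, 10.50 and 10.50 with continuous stimulation, a rise of 1.34 ± 0.14 (adjusted p = 3.02e-05). Shmt1 rose by 1.04 ± 0.33, Mthfd2 by 0.91 ± 0.20 and Psph by 0.60 ± 0.15. Without the first CD4 unstimulated array 2 genes remained called, Asns and Psat1. The Shmt1 groups overlapped, and its call was also lost without the second unstimulated or the first or the second continuous array (adjusted p 0.124 to 0.194).

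Cells stimulated for the 2 culture days and then left 3 days without antigen were compared with unstimulated cells. In CD8+ cells Asns was still higher, at 7.11, 6.75 and 7.10, a difference of 1.66 ± 0.38 (adjusted p = 0.00448), and it was the 1 gene called up, beside 16.2% of all genes. By their leading probe sets 5 genes were lower, beside 15.1% of all genes. Slc7a5 went from 9.09, 8.74 and 9.05 to 7.67, 7.96 and 7.89, a difference of −1.12 ± 0.32 (adjusted p = 0.0157), lost without the first transient array (adjusted p = 0.0576). Slc3a2 went from 11.16, 10.73 and 11.14 to 10.26, 10.21 and 10.55, a difference of −0.67 ± 0.18 (adjusted p = 0.0103). CD8 unstimulated arrays had a beta-actin 3′ excess of 1.92 to 2.44, against 0.66 to 1.02 on CD8 transient arrays. Its part in these falls was not tested, and Slc7a5 and Slc3a2 have no second probe set to compare. Cth differed by −0.41 ± 0.13 (adjusted p = 0.0318) between values not shown to be above background, and this call was lost when any of 5 of the 6 arrays was left out (adjusted p 0.0634 to 0.0958). Psat1 at −1.22 ± 0.13 and Mthfd2 at −1.14 ± 0.18 complete the 5, and their probe sets disagreed. In CD4+ cells 2 genes were called up, Mthfd2 and Psat1, beside 9.59% of all genes, and 0 were called down, beside 13.1%. By probe set 3 of 22 were called up and 5 down. Asns differed by 1.16 ± 0.46 in CD4+ cells (adjusted p = 0.0907), while its other probe set rose by 2.23 ± 0.62 (adjusted p = 0.018).

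**Figure D2:**
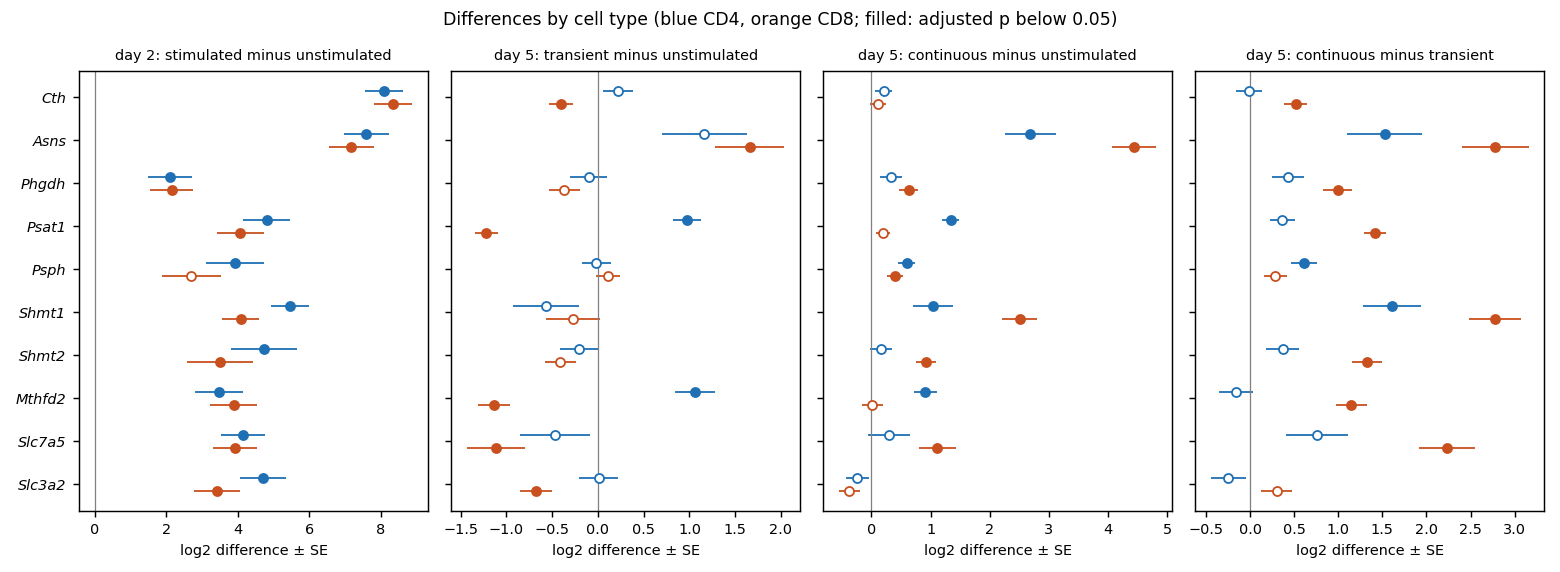
Log2 difference ± SE (x axis) of each gene (y axis) in 4 comparisons, by leading probe set, for CD4+ and CD8+ cells. Filled points were called at an adjusted p below 0.05. On day 2 each difference is positive, and on day 5 the widest is 4.44 for Asns in continuous against unstimulated CD8+ cells.

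Psat1 and Mthfd2 gave opposite answers by probe set in the comparisons of transient with unstimulated cells. In CD4+ cells the leading Mthfd2 probe set rose from 10.29 and 10.74 to 11.51 and 11.64, by 1.06 ± 0.21 (adjusted p = 0.00287). The other fell from 11.14 and 10.65 to 9.32 and 9.67, with a difference of −1.40 ± 0.35 (adjusted p = 0.0096). For Psat1 the leading probe set differed by 0.97 ± 0.15 and the other by −1.30 ± 0.25, both called. In CD8+ cells both pairs were turned round: the leading probe sets were lower in transient cells, while the other was higher by 0.94 ± 0.28 for Mthfd2 and by 0.89 ± 0.20 for Psat1. Shmt2 also had calls of both signs there, 0.71 ± 0.15 and −0.52 ± 0.18 for 2 of its 4 probe sets. No direction can be given for Psat1, Mthfd2 or Shmt2 in these comparisons.

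The gap between the probe sets of a gene followed particular groups. On the 5 arrays of CD4 transient and CD8 unstimulated cells, the leading Mthfd2 probe set stood 1.97 to 2.19 above the other, and on the other 11 day 5 arrays the gap was −0.86 to 0.40. For Psat1 the gap was 1.32 to 1.95 on those 5 arrays and −1.44 to −0.35 on the other 11. The same 5 arrays had the beta-actin 3′ excess of 1.92 to 2.73, against 0.31 to 1.02 on the other 11. The part of RNA quality in these differences was not tested. The size of a difference also depended on the probe set where 1 of these groups was set against continuous cells. Continuous against unstimulated CD8+ cells gave 0.20 ± 0.13 by the leading and 3.00 ± 0.20 by the other probe set of Psat1, and 0.01 ± 0.18 and 2.68 ± 0.28 for Mthfd2. Continuous against transient CD4+ cells gave 0.37 ± 0.14 and 3.00 ± 0.22 for Psat1, and −0.16 ± 0.20 and 2.35 ± 0.32 for Mthfd2.

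**Figure D3:**
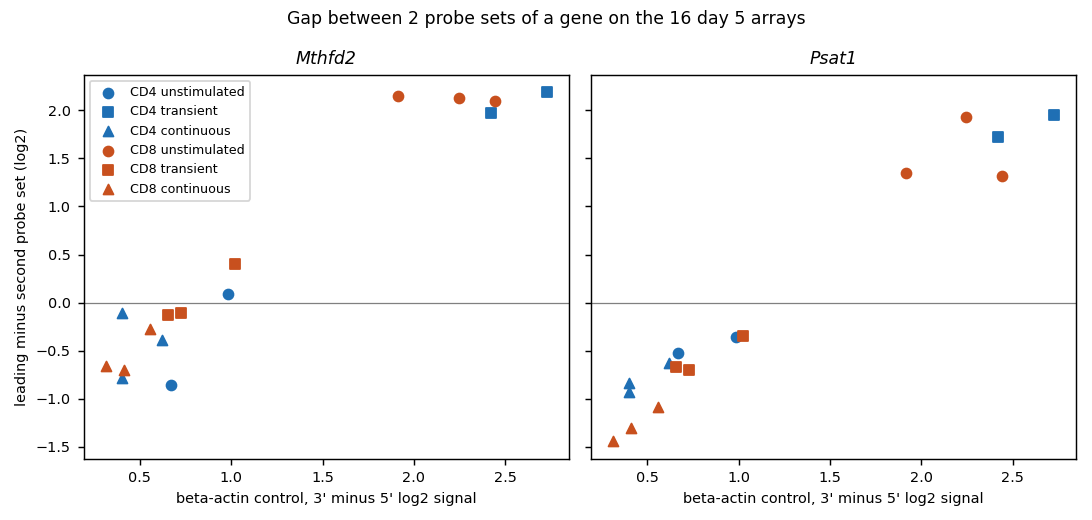
Gap between the leading and the other probe set of Mthfd2 and Psat1 (y axis, log2) against the beta-actin 3′ minus 5′ control signal (x axis, log2) on the 16 day 5 arrays. The 5 arrays of CD4 transient and CD8 unstimulated cells lie apart from the other 11 on both axes, with Mthfd2 gaps of 1.97 to 2.19.

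In comparisons between groups with low actin excess the probe sets of Mthfd2 and of Psat1 had the same sign. Continuous against transient CD8+ cells gave 1.15 ± 0.18 and 1.74 ± 0.28 for Mthfd2 and 1.42 ± 0.13 and 2.12 ± 0.20 for Psat1. Continuous against unstimulated CD4+ cells gave 0.91 ± 0.20 and 0.95 ± 0.32 for Mthfd2 and 1.34 ± 0.14 and 1.70 ± 0.22 for Psat1. On day 2 the probe sets called for a gene had 1 direction in each cell type.

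The cell types were compared directly by interaction. Each of these comparisons includes CD4 transient or CD8 unstimulated arrays, the groups with high actin excess, and its part was not tested. For continuous against transient stimulation 4 of 10 genes had a larger difference in CD8+ cells, beside 7.88% of all genes, and 0 had a smaller one, beside 10.6%. They were Slc7a5 at 1.47 ± 0.47 (adjusted p = 0.0459), Mthfd2 at 1.31 ± 0.26, Psat1 at 1.05 ± 0.19 and Shmt2 at 0.95 ± 0.25. The other probe sets of Mthfd2 and Psat1 gave −0.61 ± 0.42 and −0.89 ± 0.30, and neither was called. For continuous against unstimulated cells Asns at 1.75 ± 0.57 and Shmt1 at 1.47 ± 0.44 were called larger in CD8+ cells, beside 11.2% of all genes. The other Asns probe set was not called (adjusted p = 0.187). Mthfd2 and Psat1 were called smaller, beside 8.3%, with other probe sets called larger. For transient against unstimulated cells 3 genes were called smaller in CD8+ cells, beside 18.6% of all genes, and 0 larger, beside 18.5%. They were Cth, from values not shown to be above background, and Mthfd2 and Psat1, both with other probe sets called larger. Single arrays decided several of these calls. By leading probe set Asns, Shmt1, Cth and Slc7a5 were each lost in 5 or more of the fits that left out 1 array, with adjusted p from 0.0514 to 0.186. The Mthfd2 call for continuous against unstimulated cells was lost in 4 such fits (adjusted p 0.0515 to 0.165), and Shmt2 without the first CD4 transient array (adjusted p = 0.112). The interactions share arrays with the differences given above and are not a further observation of them.

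Cth, which led on day 2, was low throughout day 5. It read between 3.51 and 4.16 on all 16 day 5 arrays, beside 11.61 to 12.71 on the 6 stimulated day 2 arrays and 3.00 to 5.20 on the 6 unstimulated ones. Its group means on day 5 ran from 3.54 in CD8 transient to 4.06 in CD8 continuous cells. The 3 continuous and the 3 transient CD8 arrays did not overlap, yet both were at the level of unstimulated day 2 cells. In continuous CD8+ cells Cth was 0.11 ± 0.13 above unstimulated cells (95% interval −0.17 to 0.39), where Asns differed by 4.44.

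The order of group means put the stimulated day 2 groups first for 9 of 10 genes. For Asns the order went on with CD8 continuous (9.77 ± 0.53, SD, n = 3), CD4 continuous (7.80 ± 0.68, n = 3), CD8 transient (6.99 ± 0.21, n = 3) and CD4 transient (6.28 ± 0.30, n = 2), neighbours whose arrays did not overlap. The groups below overlapped in sequence. The lowest CD4 continuous and the highest CD8 transient array of Asns both read 7.11, so those groups were barely apart. Shmt1 was the exception to the order: CD8 continuous cells (10.71 ± 0.18, n = 3) came between CD4 stimulated (10.85 ± 0.43, n = 3) and CD8 stimulated cells (9.99 ± 0.33, n = 3), overlapping the former and not the latter.

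Slc7a5 and its partner Slc3a2 had different orders on day 5. Slc7a5 was highest in CD8 continuous cells (10.07 ± 0.82, SD, n = 3) and lowest in CD8 transient cells (7.84 ± 0.15, n = 3). Slc3a2 was highest in CD8 unstimulated cells (11.01 ± 0.25, n = 3), overlapping CD8 continuous cells (10.64 ± 0.09, n = 3). CD8 unstimulated arrays had a beta-actin 3′ excess of 1.92 to 2.44, and its part in this order was not tested. The 4 other day 5 groups of Slc3a2 had means of 10.09 to 10.34 and overlapped one another in sequence. Against unstimulated cells, Slc3a2 in continuous cells differed by −0.37 ± 0.18 in CD8+ (adjusted p = 0.0992) and −0.24 ± 0.20 in CD4+ cells (adjusted p = 0.481). The CD8 difference was called after quantile normalisation (adjusted p = 0.0203) and without the second CD8 unstimulated array (adjusted p = 0.0393).

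Likeness of pattern was measured as Pearson's r over the 10 group means, between leading probe sets. The 45 pairs of members had r from 0.59 to 0.98 with a median of 0.87, and the points share the 2 stimulated day 2 groups as their high end. Genes most like Cth were Map3k20 (0.996), Chac1 (0.996), Acsl6 (0.995), Slc7a3 (0.995) and Il3 (0.994). Genes most like Mthfd2 were Timmdc1 (0.991), Pafah1b2 (0.987), Dusp16 (0.981), Cdca4 (0.976) and its fellow member Psat1 (0.975). Mthfd2 and Psat1 are among the genes whose probe sets disagreed above, in the groups with high actin excess.

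Other genes of the pathway, from lists without the 10 members, were also compared on day 2, where 10.5% of all genes rose in CD4+ and 7.29% in CD8+ cells and the median of all genes was 0.14 in both. Of 17 amino acid synthesis genes 6 rose in CD4+ and 5 in CD8+ cells, with medians of 1.71 and 1.77. Of 14 transporters 3 rose in each cell type, among them Slc7a3, a cationic amino acid transporter, by 5.09 ± 0.61 and 5.04 ± 0.61. Bcat1, the cytosolic branched-chain aminotransferase, rose by 6.58 ± 0.65 and 6.20 ± 0.65, and Gpt2, the mitochondrial alanine aminotransferase, by 6.20 ± 0.71 and 6.17 ± 0.71. Of 11 folate genes 4 and 2 rose, of 9 methionine, cysteine and glutathione genes 3 and 1, and of 9 purine synthesis genes 4 and 3. The CD8 share of the methionine, cysteine and glutathione list was near that of all genes. In none of these lists did a gene fall in that fit, where 0.734% of all genes fell in CD4+ and 0.912% in CD8+ cells. The absence of falls is therefore near the shares of all genes. Without the third unstimulated arrays 26.1% of all genes rose in CD4+ and 16.2% in CD8+ cells, while 4854 and 2553 of the 12393 genes fell. The synthesis list then had 9 up and 3 down in CD4+ and 9 up and 1 down in CD8+ cells, with medians of 1.49 and 0.73. In CD4+ cells 7 folate genes (median 1.15), 5 methionine, cysteine and glutathione genes (1.43), 7 purine genes and 5 transporters (0.31) were up, with 1 down in the methionine, cysteine and glutathione list and 1 among transporters. In CD8+ cells 4 folate genes (median 0.70), 4 methionine, cysteine and glutathione genes (0.46), 5 purine genes (1.25) and 5 transporters (−0.01) were up and 0 down. The CD8 medians of the synthesis, folate, and methionine, cysteine and glutathione lists thus fell from 1.77, 1.45 and 1.80.

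The tRNA synthetases, which load amino acids on their tRNAs, rose in 15 of 18 members in CD4+ cells (median 2.78) and 11 of 18 in CD8+ cells (median 2.29). Kars, the lysyl enzyme, rose by 4.42 ± 0.81 and 3.39 ± 0.81. Regulators and targets of the integrated stress response rose in 13 of 20 members in each cell type, with medians of 2.71 and 2.33. Without the third unstimulated arrays 17 synthetases were up and 1 down in CD4+ cells (median 2.59) and 16 up in CD8+ cells (median 1.55). Of the stress response list 16 were up and 1 down in CD4+ cells (median 2.42) and 16 up in CD8+ cells (median 1.83). Among the stress response genes were Nupr1, a stress-induced nuclear protein (5.40 ± 0.49 and 5.69 ± 0.49), Atf3, a transcription factor (4.93 ± 0.60 and 5.21 ± 0.60), and Chac1, which degrades glutathione (4.87 ± 0.53 and 4.42 ± 0.53).

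**Figure D4:**
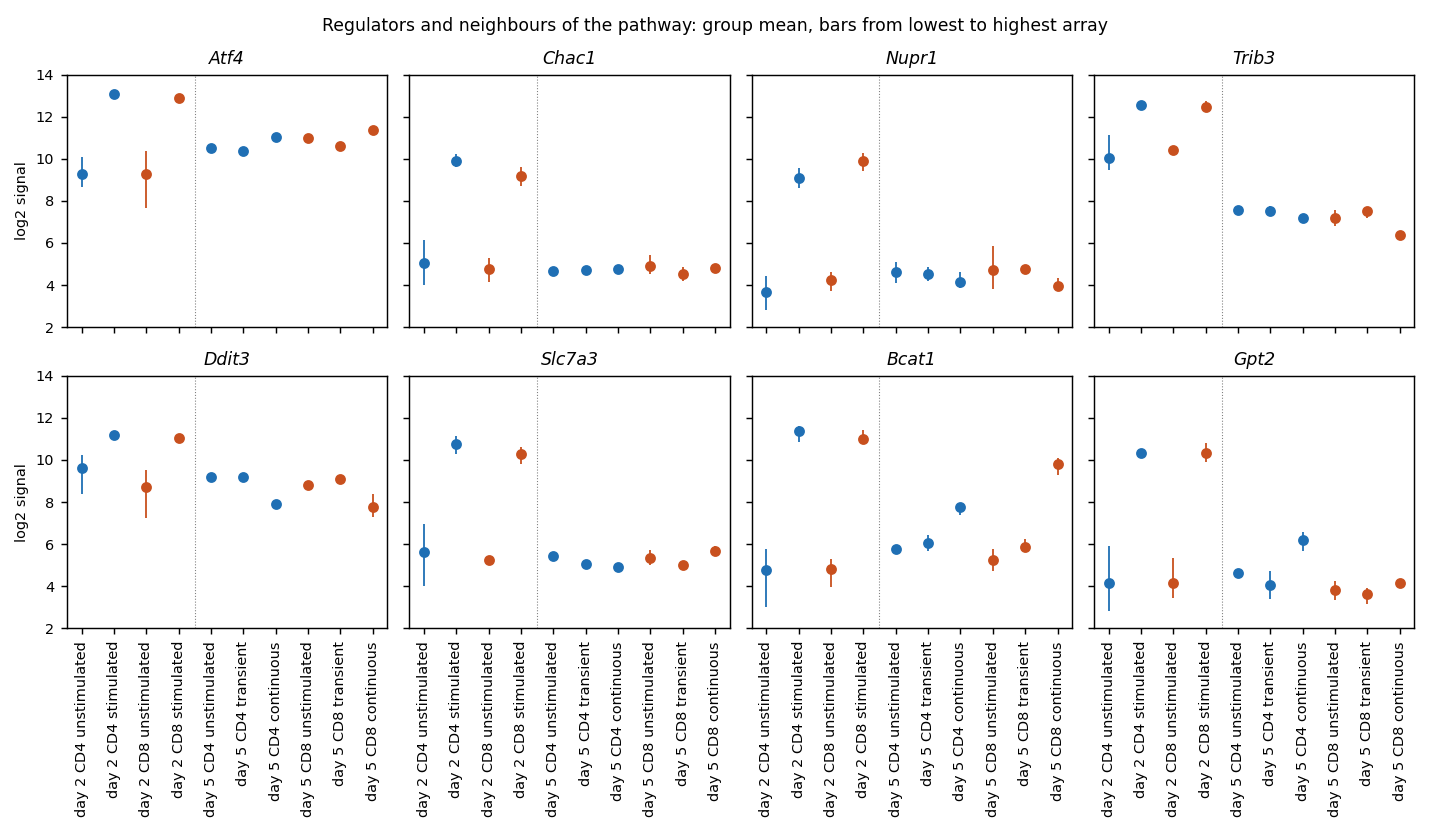
Mean log2 signal (y axis) of 8 other genes in each group (x axis), with bars from the lowest to the highest array; the genes were chosen after their values were seen. Chac1, Nupr1 and Slc7a3 were high in stimulated day 2 cells alone, while Bcat1 was 9.81 in day 5 CD8 continuous cells.

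In continuous against transient CD8+ cells on day 5 the shares of all genes were 13.5% up and 13.5% down. Synthetases rose in 13 of 18 members (median 0.57), purine synthesis genes in 6 of 9 (median 0.83) and folate genes in 6 of 11 (median 0.61), with 0 lower in each. Bcat1 rose by 3.91 ± 0.29, Mthfd1, the cytosolic folate enzyme, by 1.81 ± 0.14, and Ppat, the committing enzyme of purine synthesis, by 1.62 ± 0.17. The methionine, cysteine and glutathione list was mixed, with Srm, Ahcy and Ahcyl1 called up and Mat2b called down (−0.60 ± 0.14). Counts of the amino acid synthesis list, which holds Bcat1, and of the transporters are not given for day 5. In the stress response list 2 of 20 rose and 3 fell, near the shares of all genes. Those that fell included Ddit3, the transcription factor CHOP, by −1.33 ± 0.21 and Trib3, a pseudokinase, by −1.13 ± 0.20. Chac1 had group means of 4.51 to 4.90, Nupr1 of 3.98 to 4.78 and Slc7a3 of 4.92 to 5.68 on day 5, beside 9.18 to 9.91, 9.07 to 9.91 and 10.30 to 10.74 in stimulated day 2 cells. In CD4+ cells the comparison called 9 synthetases up and 3 down, 5 purine genes up and 1 down, and 3 folate genes up and 1 down, beside 17.6% up and 16.4% down of all genes. The counts down, and the folate count up, were near those shares. Of the methionine, cysteine and glutathione list, Gsr, Gss, Mat2b and Ahcy were called up and Gclc and Cdo1 down in CD4+ cells. Gpt2 rose by 2.11 ± 0.37 in CD4+ cells, and the CD8 minus CD4 difference of its response was −1.59 ± 0.50 (adjusted p = 0.0403).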

How the data were processed

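Gene expression was measured on 28 Affymetrix Mouse 430A2 arrays. The deposited values are log2 signals made by the authors with RMA, per the submitters' processing notes; its version and the arrays normalised together are not given in the sources used here. RNA was amplified before hybridisation, per the labels' protocols. The number of arrays limits the precision.

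Of 22690 probe sets, 64 controls, 691 with several symbols and 1555 without a symbol in the platform annotation were left out. The remaining 20380 represent 12393 genes, 4956 with over 1 probe set, and 20351 probe sets matched RefSeq (GRCm38.p6). Each day was fitted separately with limma 3.58.1 in R 4.3.3 (lmFit, eBayes), 8 residual degrees of freedom on day 2 and 10 on day 5, with 12 comparisons and Benjamini-Hochberg adjustment over the probe sets within each. Intervals are 95%. On simulated data with the arrays' spread, changes of 1 and 3 were called in 1% and 52% of 100 probe sets each for day 2 CD4+ cells, and in 78% and 100% for day 5 continuous against transient CD8+ cells, over 20380 probe sets.

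Named genes were all members, up to 3 called genes with the largest change per pathway list and comparison, and the 5 genes most like Cth and Mthfd2. Members and lists were chosen with earlier results of these data known. Alternatives were 1 probe set per gene, the lowest 30% of probe sets left out, quantile normalisation, median centring, array weights, a replicate block, all 28 arrays in 1 fit, and leaving out arrays. Replicate numbers were checked as pairs by the correlation of deviations from group means. Among comparisons with 3 pairs it exceeded 0.1 in every pair for transient against unstimulated CD8+ cells alone (0.47, 0.30 and 0.16). It was 0.38 and 0.25 in the 2 pairs of continuous against unstimulated CD4+ cells. The block changed no call of a member in either.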

Additional observations from a re-analysis of the deposited data

Results flagged for a closer look

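On day 5, 11 tests of the CD8 minus CD4 difference in response were called, in log2 units by leading probe set. Each of these comparisons includes CD4 transient or CD8 unstimulated arrays, the groups with a beta-actin 3′ excess of 1.92 to 2.73. The part of that excess, and of the B cell signal in CD4 transient cells, was not tested. For transient against unstimulated cells the CD8 minus CD4 difference was −2.20 ± 0.28 for Mthfd2 (adjusted p = 3.26e-05), −2.19 ± 0.20 for Psat1 (adjusted p = 1.84e-06) and −0.63 ± 0.21 for Cth (adjusted p = 0.0303). Cth lay between the 6.5 and 17.0 percentile of every day 5 array and was not shown to be above background, so its value cannot show whether the response differed. That call was lost in 6 of the fits that left out 1 array (adjusted p 0.0514 to 0.146) and after quantile normalisation (adjusted p = 0.11). The other probe sets of Mthfd2 and Psat1 gave 2.34 ± 0.45 and 2.19 ± 0.32, so the sign depends on the probe set. For continuous against unstimulated cells it was −0.89 ± 0.26 for Mthfd2, −1.14 ± 0.19 for Psat1, 1.47 ± 0.44 for Shmt1 and 1.75 ± 0.57 for Asns (adjusted p = 0.0296, 0.00105, 0.0336 and 0.0456). The other probe sets of Mthfd2 and Psat1 gave 1.73 ± 0.42 and 1.30 ± 0.30, and the other Asns probe set was not called (adjusted p = 0.187). For continuous against transient cells it was 1.47 ± 0.47 for Slc7a5, 1.31 ± 0.26 for Mthfd2, 1.05 ± 0.19 for Psat1 and 0.95 ± 0.25 for Shmt2 (adjusted p = 0.0459, 0.00389, 0.00193 and 0.0192). The other probe sets of Mthfd2 and Psat1 gave −0.61 ± 0.42 and −0.89 ± 0.30 and were not called (adjusted p = 0.385 and 0.0582).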

How the results depend on the processing

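With all 28 arrays in 1 fit, which pools the wider spread of day 2, the counts of member genes called on day 5 were 0 for CD4 transient against unstimulated, 1 for CD4 continuous against unstimulated and 1 for CD4 continuous against transient. In CD8+ cells they were 0, 2 and 3 for the same comparisons, and each of the 3 interactions had 0. The day 2 counts were within 1.5 times of those given. Leaving out 1 array at a time, the counts ran from 2 to 5 for CD4 continuous against unstimulated, from 1 to 4 for CD4 continuous against transient, and from 1 to 5 for the interaction of continuous against unstimulated. The last count fell to 1 without the first CD4 or the second CD8 unstimulated array, and to 2 without the second CD4 or the first CD8 unstimulated, the first CD4 continuous or the second CD8 continuous array. Where a CD4 group was left with 1 array, that array was taken to vary like the other groups. The interaction calls of Asns, Shmt1, Slc7a5, Cth and, for continuous against unstimulated cells, Mthfd2 were each lost under several of these fits, and that of Shmt2 in 1. Quantile normalisation also lost the interaction calls of Cth (adjusted p = 0.11) and Shmt1 (0.0591), and median centring those of Asns (0.0504) and Slc7a5 (0.0529). Quantile normalisation gained calls as well. Slc3a2 was lower in continuous than in unstimulated CD8+ cells (−0.55, adjusted p = 0.0203). Phgdh (0.0462) and Shmt2 (0.0338) were lower in transient than in unstimulated CD8+ cells. The Slc3a2 interaction of transient against unstimulated was called (−0.88, adjusted p = 0.024).

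Scaling moved the median of all genes on day 2 from 0.14 to −0.29 in CD4+ and −0.32 in CD8+ cells by median centring and to −0.20 and −0.19 by quantile normalisation, after which 46.7% and 48.1% of called genes were higher. The count of all genes called rose from 1393 to 4699 in CD4+ and from 1017 to 3871 in CD8+ cells under centring. No member result that was called changed sign under any alternative.

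The replicate block moved the count for CD4 transient against unstimulated from 2 to 3, with Asns at an adjusted p of 0.0359, and Psph in CD8+ cells on day 2 to 0.031. Shmt1 (0.0505) and Slc7a5 (0.0542) lost their interaction calls, and Slc7a5 in CD4 continuous against transient was gained (0.0421). The numbers did not pair these samples. With the numbers of the CD4 transient arrays exchanged, chosen after seeing the data, 3 genes were called.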
